A study of Mus musculus with 6 samples.

Results

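Neuregulins and ErbB receptors were followed by single-nucleus RNA sequencing (snRNA-Seq) of the prelimbic area (PL) of the medial prefrontal cortex in male C57BL/6 mice. The family was taken by gene symbol and consists of the ligand genes Nrg1, Nrg2, Nrg3 and Nrg4 and the receptor genes Egfr, Erbb2, Erbb3 and Erbb4, which are 8 of the 32285 features counted. All 8 were present in the count matrices of all 6 libraries. Run offspring had mothers with a running wheel in the cage during the postpartum period, and Sed offspring had mothers in standard cages. From weaning, males were group-housed (GH) or socially isolated (SI). Cohort 1 consisted of a RunGH and a SedGH library from males that had competed in tube tests of dominance, Run males from the top and Sed males from the bottom of the ranking. Cohort 2 consisted of RunGH, SedGH, RunSI and SedSI libraries from males with no earlier behavioural test. The labels name no engineered allele. Each library was 1 pool of PL from 3 males of different mothers, so a condition had 1 library per cohort, social isolation occurred in cohort 2 alone, and the spread between single mice could not be seen. The labels give P21 as the age, whereas the study's methods place the isolation of nuclei at about 4 months.

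The 6 libraries gave 42595 nuclei after filtering, between 4997 and 9936 per library, with a median of 1637 to 6250 unique molecular identifiers (UMIs, each marking 1 captured RNA molecule) per nucleus. Nuclei were clustered without the family and its pathway genes, and a class was named from marker genes, so each name stands for nuclei that are like that cell type. The 39962 named nuclei fell into 7 pyramidal-like classes (33803 nuclei), PV-like (1625), SST-like (1095), VIP-like (792) and NPY-like (446) interneurons, astrocyte-like (1341), oligodendrocyte-like (290), oligodendrocyte precursor-like (327) and microglia-like (146) nuclei, and endothelial-like (38) and vascular leptomeningeal-like (59) nuclei, both named in cohort 1 alone. This limit comes from the naming, since a cluster of 136 nuclei in cohort 2 with leading genes of the vascular leptomeningeal-like class met no name, and endothelial markers were present in astrocyte-like nuclei of cohort 2 (32.3 to 186 CPM per library, against 2649 and 3804 CPM in endothelial-like nuclei). In SST-like nuclei the SST marker list summed to 3493 to 4080 CPM (a gene's UMIs scaled to a common total of all UMIs), in PV-like nuclei the PV list to 1890 to 2582 CPM, and inhibitory markers stayed between 15.5 and 30.6 CPM in layer 2/3 pyramidal-like nuclei. An Npas1 and Grik1 cluster carried the SST name in cohort 1 (197 nuclei) and no name in cohort 2 (207 nuclei), so SST-like nuclei are not the same mixture in the 2 cohorts. The same holds for PV-like nuclei, since a cluster led by Unc5b carried the PV name in cohort 2 (62 nuclei) and no name in cohort 1 (96 nuclei). Mid-layer nuclei of cohort 1 included a cluster of 1277 nuclei with 3 mid-layer markers detected, against 5 in the other mid-layer clusters. Libraries shared 5 to 22 barcodes per pair, at most 0.428% of the smaller library. Cohort 1 stood apart in its background droplets, barcodes below a library's minimum of UMIs for a nucleus, whose median was taken as the amount of free RNA. They held 19.0% and 19.1% of the UMIs of the median nucleus, against 4.25% to 7.68% in cohort 2. Within cohort 2 this share was higher in RunGH and RunSI (7.68% and 7.49%) than in SedGH and SedSI (5.01% and 4.25%). Levels are therefore given as CPM of all UMIs of the class, per library or as a mean over libraries, and for most members beside the level in free RNA.

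Neuregulins are growth factors with an EGF-like domain that are made as membrane-bound precursors and released by proteases, or act while still attached to the cell that makes them. They bind ErbB3 and ErbB4 directly. ErbB2 binds no ligand of its own and ErbB3 has little kinase activity, so that both act in dimers with other family members, while EGFR and ErbB4 are full kinases. In the cortex ErbB4 is known as the neuregulin receptor of inhibitory interneurons, where it takes part in the formation and strength of synapses between interneurons and pyramidal neurons, and EGFR and ErbB3 are known mainly from glia and their precursors.

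The promoters of 3 members are shown. Erbb4 and Egfr had the largest differences between the neuron classes that were tested, and Nrg3 is a ligand with high levels in most neuron classes. Each line gives 300 bases, from 250 before to 50 after the gene's start, 5′ to 3′ in the direction of transcription, from RefSeq for GRCm38.p6, the patched form of the mm10 build to which reads were aligned. Capitals mark each CG dinucleotide (CpG), the site of DNA methylation. The Erbb4 promoter lies at chr1:69108010-69108309 on the minus strand, the Egfr promoter at chr11:16751953-16752252 on the plus strand and the Nrg3 promoter at chr14:39473039-39473338 on the minus strand.
Erbb4: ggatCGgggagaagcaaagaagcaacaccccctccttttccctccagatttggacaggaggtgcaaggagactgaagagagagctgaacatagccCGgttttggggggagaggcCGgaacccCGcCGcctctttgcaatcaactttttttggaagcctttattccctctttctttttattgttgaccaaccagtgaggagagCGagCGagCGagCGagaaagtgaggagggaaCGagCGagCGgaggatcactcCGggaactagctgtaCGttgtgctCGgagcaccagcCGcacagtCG
Egfr: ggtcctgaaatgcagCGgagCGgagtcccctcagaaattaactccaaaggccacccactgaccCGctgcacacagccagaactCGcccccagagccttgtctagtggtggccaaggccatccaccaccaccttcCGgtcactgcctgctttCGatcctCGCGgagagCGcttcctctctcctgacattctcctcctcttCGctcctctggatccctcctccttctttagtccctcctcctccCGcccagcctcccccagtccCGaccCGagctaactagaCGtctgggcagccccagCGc
Nrg3: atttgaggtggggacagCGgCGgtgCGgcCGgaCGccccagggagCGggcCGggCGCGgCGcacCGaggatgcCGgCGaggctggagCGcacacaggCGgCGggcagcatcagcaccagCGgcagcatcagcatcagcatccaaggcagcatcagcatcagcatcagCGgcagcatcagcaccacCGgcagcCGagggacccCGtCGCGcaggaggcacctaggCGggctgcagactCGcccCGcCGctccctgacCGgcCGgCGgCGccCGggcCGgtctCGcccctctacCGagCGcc

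The Nrg3 promoter held 36 CpG, more than 93.8% of the 32851 mouse promoters of the same length, whose median was 7. The Erbb4 and Egfr promoters held 17 and 15. Egfr had 1 match to GGGCGG, read on both strands, at base 242, a motif found in 35.7% of promoters. None of the 3 held CCAAT (37.4% of promoters), TATAAA (13.6%), CACGTG (7.15%) or TAATTA (5.29%) on either strand, which says only that these letters are not in this window. In the GENCODE M21 annotation of mm10 Nrg1 spans 1069 kb on chromosome 8, Nrg3 1104 kb on chromosome 14 and Erbb4 1076 kb on chromosome 1, while Nrg2 spans 180 kb, Egfr 166 kb, Nrg4 107 kb, Erbb2 25.2 kb and Erbb3 22.1 kb. Because introns were counted, long genes collect more UMIs, and levels are compared between genes only per 100 kb of span.

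Nrg1, the best-known ligand of ErbB4, was highest in pyramidal-like classes. Its highest mean was in mid-layer pyramidal-like nuclei, at 6154 ± 626 CPM (SD, n = 6 libraries), with 7007 and 6784 CPM in RunGH and SedGH of cohort 1 and 5553, 6156, 5506 and 5917 CPM in RunGH, SedGH, RunSI and SedSI of cohort 2. Both cohort 1 libraries lay above all 4 libraries of cohort 2. Layer 5 intratelencephalic-like (5256 ± 617 CPM), layer 2/3-like (4894 ± 778), deep (4364 ± 1025) and layer 6 corticothalamic-like (4350 ± 614) nuclei followed. The pyramidal classes split in 2 groups, since layer 5 near-projecting-like (2120 ± 611 CPM) and layer 5 extratelencephalic-like (1792 ± 530 CPM) nuclei had less Nrg1 than the other 5 in every library. The step from layer 6 corticothalamic-like to near-projecting-like nuclei was 1.07 on the log2 scale and had the same sign in 6 of 6 libraries (exact sign-flip permutation test, two-sided, p = 0.0313, the smallest that 6 libraries allow, adjusted p = 0.184 over the 112 neighbouring pairs compared for the family). Deep and layer 6 corticothalamic-like nuclei did not differ beyond their spread (p = 0.875, exact sign-flip test). No pair of neighbours in the order of any member reached an adjusted p of 0.05. With a smallest p of 0.0313 and 112 pairs, such a value was all but out of reach, so nothing is concluded from its absence. Neighbours were also picked by ordering the same values, so these p-values only describe the order.

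Among interneurons Nrg1 was highest in VIP-like (1801 ± 498 CPM) and NPY-like (1466 ± 447 CPM) nuclei and lowest in SST-like nuclei (683 ± 604 CPM). PV-like nuclei had 1566 and 1558 CPM in cohort 1 and 631, 552, 632 and 742 CPM in cohort 2. SST-like nuclei had 1340 and 1573 CPM in cohort 1 and 299, 311, 336 and 241 CPM in cohort 2. In both classes the cohorts did not overlap, and free RNA held 4209 and 4644 CPM of Nrg1 in cohort 1 against 710 to 2052 CPM in cohort 2. The part of free RNA in these interneuron values was estimated by subtraction, which left a mean of 670 CPM in PV-like and 389 CPM in SST-like nuclei, still far under the 6442 CPM left in mid-layer pyramidal-like nuclei.

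Nrg3, a ligand of ErbB4 made mainly in the nervous system, had the highest level of the 4 ligands in these nuclei, per length, and was present in all neuron classes. Its mean was highest in layer 5 near-projecting-like nuclei (7309 ± 570 CPM), with 7898, 6344, 7262, 7140, 7340 and 7872 CPM in the 6 libraries in the order used above. The lowest mean of the 11 neuron classes was 3677 ± 643 CPM, in NPY-like interneurons. Pyramidal-like and interneuron-like classes were mixed in this order, with SST-like nuclei (5375 ± 571 CPM) between layer 5 extratelencephalic-like (5927 ± 481) and intratelencephalic-like (5318 ± 367) nuclei. The near-projecting-like nuclei exceeded the next class, layer 6 corticothalamic-like (5956 ± 527 CPM), in 6 of 6 libraries by 0.30 on the log2 scale (exact p = 0.0313, adjusted p = 0.184). Astrocyte-like nuclei had the least, with 2355 and 2605 CPM in cohort 1 and 438, 183, 385 and 211 CPM in cohort 2, while free RNA held 5008 and 5265 CPM in cohort 1 and 1316 to 2984 CPM in cohort 2. After subtraction of free RNA the astrocyte-like mean was 500 CPM, with 0 CPM left in the lowest library.

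Nrg2, which also binds ErbB3 and ErbB4, was highest in NPY-like interneurons at 342 ± 161 CPM. These nuclei had 518 and 577 CPM in cohort 1 and 256, 219, 247 and 233 CPM in cohort 2, again without overlap between cohorts. Free RNA held 188 and 191 CPM of Nrg2 in cohort 1 and 47.9 to 124 CPM in cohort 2. NPY-like nuclei and the next class, near-projecting-like pyramidal nuclei (265 ± 54.9 CPM), did not differ beyond their spread (5 of 6 libraries higher, exact p = 0.125). Extratelencephalic-like nuclei had the least Nrg2 of the neuron classes (106 ± 23.8 CPM), lower than intratelencephalic-like nuclei in 6 of 6 libraries. Nrg4, an ErbB4 ligand known best from adipose tissue, was low everywhere, with 2227 UMIs in all named nuclei. Its mean ran from 19.1 ± 4.23 CPM in PV-like and 15.6 ± 1.53 CPM in layer 2/3 pyramidal-like nuclei to 6.29 ± 2.47 CPM in SST-like and 6.14 ± 1.74 CPM in layer 6 corticothalamic-like nuclei among neurons.

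Erbb4 followed the opposite order, with interneurons above pyramidal-like classes. PV-like interneurons had the highest mean, 10105 ± 1153 CPM, followed by NPY-like (8086 ± 1392 CPM) and VIP-like (6040 ± 785 CPM) interneurons. PV-like nuclei had 9783 and 7923 CPM in RunGH and SedGH of cohort 1 and 10489, 10994, 10513 and 10926 CPM in RunGH, SedGH, RunSI and SedSI of cohort 2. The order PV-like, NPY-like, VIP-like held in 6 of 6 libraries at both steps (0.33 and 0.41 on the log2 scale, exact p = 0.0313 for each, adjusted p = 0.184). SST-like interneurons stood apart from the other 3 interneuron classes, with 946.5 and 1166 CPM in cohort 1 and 746, 665, 698 and 617 CPM in cohort 2 (mean 807 ± 210 CPM). Every library of SST-like nuclei lay below every library of PV-like, NPY-like and VIP-like nuclei.

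The pyramidal classes had little Erbb4, with means of 60.7 to 120 CPM, and both cohort 1 libraries lay above all cohort 2 libraries in each class. Summed over all pyramidal-like nuclei, Erbb4 was at 168 and 157 CPM in cohort 1 and at 31.8, 34.2, 23.4 and 22.7 CPM in cohort 2, where free RNA held 724 and 666 CPM and 139 to 381 CPM, respectively. Per nucleus the same contrast was visible after each nucleus had been thinned to 1000 UMIs and shallower nuclei left out. The share of nuclei with at least 1 Erbb4 UMI had a median over libraries of 99.9% in PV-like, 98.7% in NPY-like, 96.1% in VIP-like and 33.8% in SST-like nuclei, and of 1.54% in layer 2/3 pyramidal-like nuclei, where the highest library reached 15.6%. Thinning left out 54 of 1625 PV-like, 33 of 1095 SST-like and 238 of 8897 layer 2/3-like nuclei. Before thinning these shares were 100%, 59.0% and 5.04% in PV-like, SST-like and layer 2/3-like nuclei, whose median UMIs per nucleus ran from 1341 to 5620, from 1317 to 5314 and from 1537 to 6672 over libraries. The share in SST-like nuclei lay above that of pyramidal-like nuclei, the class taken here as background for Erbb4, and below those of the other interneurons.

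**Figure D1:**
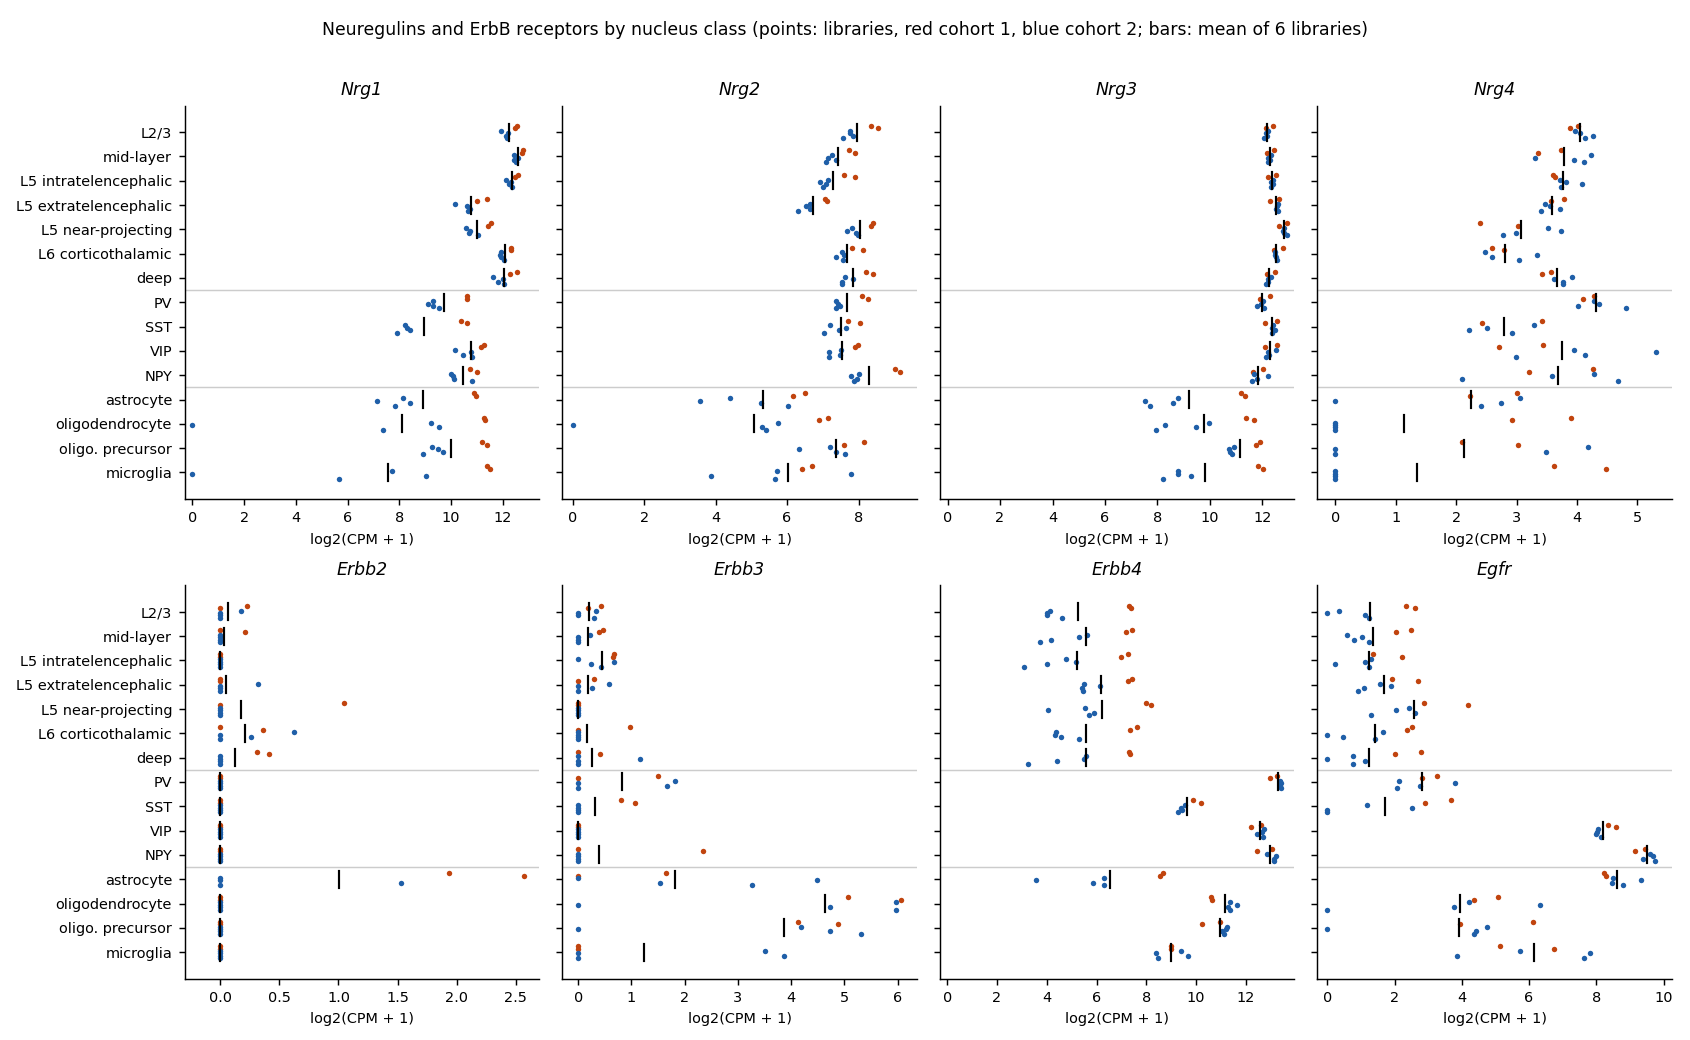
Level of each of the 8 genes, as log2(CPM + 1), in 15 nucleus classes, with 1 point per library (red, cohort 1, and blue, cohort 2) and a bar at the mean of the 6 libraries. Erbb4 was high in PV, NPY and VIP classes and low in pyramidal classes, Nrg1 was highest in 5 of the 7 pyramidal classes, and Egfr was highest in NPY, astrocyte and VIP classes of the 15 shown.

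Egfr, the receptor of EGF, TGF-alpha and related ligands, was highest in NPY-like interneurons among the 15 classes named in all 6 libraries and present in astrocyte-like and VIP-like nuclei. Vascular leptomeningeal-like nuclei, named in cohort 1 alone, had 713 and 549 CPM in RunGH and SedGH, and endothelial-like nuclei 104 and 25.2 CPM. NPY-like interneurons had 702, 564, 767, 831, 677 and 866 CPM in the 6 libraries (mean 734 ± 110 CPM), above astrocyte-like nuclei with 296, 313, 359, 646, 353 and 448 CPM (403 ± 130 CPM) in each library. VIP-like interneurons followed with 322, 380, 263, 260, 256 and 283 CPM (294 ± 48.6 CPM). Astrocyte-like and VIP-like nuclei did not differ beyond their spread (4 of 6 libraries, exact p = 0.125). PV-like (6.66 ± 3.68 CPM) and SST-like (4.07 ± 4.66 CPM) interneurons had little Egfr, and pyramidal class means were 1.58 to 6.26 CPM, where free RNA held 7.74 to 20.5 CPM. In nuclei thinned to 1000 UMIs the median share with an Egfr UMI was 46.1% in NPY-like, 29.9% in astrocyte-like and 23.0% in VIP-like nuclei, against 0.541% in PV-like and 0.118% in layer 2/3 pyramidal-like nuclei. NPY-like and VIP-like interneurons thus held UMIs of both Egfr and Erbb4, while PV-like and SST-like interneurons held Erbb4 with little Egfr.

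Erbb3 and Erbb2 were near the limit of detection. Erbb3, which oligodendrocytes and Schwann cells are known to use, gave 108 UMIs in all named nuclei. Oligodendrocyte-like nuclei had 32.5 and 65.6 CPM in cohort 1 and 61.9, 0, 25.5 and 61.7 CPM in cohort 2 (41.2 ± 26.3 CPM), and oligodendrocyte precursor-like nuclei had 16.4, 28.6, 17.2, 0, 25.5 and 39.0 CPM (21.1 ± 13.2 CPM). The SedGH library of cohort 2, at 0 in both classes, had 13 oligodendrocyte-like and 14 precursor-like nuclei. These 2 classes did not differ beyond their spread (exact p = 0.125). No neuron class exceeded a mean of 1.09 CPM of Erbb3. Erbb2, the partner receptor, gave 24 UMIs in all named nuclei, 9 of them in astrocyte-like nuclei and 0 in the 4 interneuron classes. With 6132104 UMIs in PV-like nuclei over the 6 libraries, a count of 0 allows up to 0.489 CPM (3 counts of the total, counting error only). Per 100 kb of gene span, the highest class means were 939 ± 107 CPM for Erbb4, 662 ± 51.7 for Nrg3, 575 ± 58.6 for Nrg1, 443 ± 66.5 for Egfr, 190 ± 89.5 for Nrg2, 186 ± 119 for Erbb3 and 17.9 ± 3.97 for Nrg4.

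The differences between classes were tested with edgeR's quasi-likelihood test on UMI counts summed per library and class, with library as a block, and a gene was called at a Benjamini-Hochberg adjusted p below 0.05 and a log2 difference of at least 1. 6 of the 8 members passed the filter on low counts, Erbb2 and Erbb3 did not, and 13224 genes were tested. Between the mean of the 4 interneuron classes and the mean of the 7 pyramidal classes, 14.1% of all genes were called. Erbb4 was higher in interneurons by 6.31 on the log2 scale (SE 0.19, adjusted p = 1.94e-45, 79.5-fold) and Egfr by 4.14 (SE 0.37, adjusted p = 9.26e-17). Nrg1 was lower by 1.96 (SE 0.11, adjusted p = 7.97e-27, 3.89-fold). Nrg3 differed by -0.43 (SE 0.11), short of the size needed for a call, Nrg2 by 0.09 (SE 0.05) and Nrg4 by 0.07 (SE 0.13). In cohort 2 alone the Erbb4 difference was 7.11 (SE 0.08) and the Nrg1 difference -2.28 (SE 0.05).

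Within interneurons, each class was set against the mean of the other 3. In PV-like nuclei, where 9.79% of genes were called, Erbb4 was higher by 1.69 (SE 0.27, adjusted p = 3.41e-07) and Egfr lower by 4.05 (the difference was -4.05, SE 0.48). In NPY-like nuclei, where 7.79% were called, Egfr was higher by 5.01 (SE 0.19, adjusted p = 2.92e-36, 32.1-fold) and Erbb4 by 1.15 (SE 0.28, adjusted p = 0.00122), while Nrg2 differed by 0.76 (SE 0.09, adjusted p = 3.55e-10), short of the size needed for a call. VIP-like nuclei (6.87% of genes called) had 1 call, Egfr, higher by 3.39 (SE 0.21), while Erbb4 differed by 0.63 (SE 0.29, adjusted p = 0.136) and Nrg1 by 0.96 (SE 0.19), just short of the size needed. SST-like nuclei (6.59% of genes called) had 4 calls, all lower: Egfr at -4.34 (SE 0.45), Erbb4 at -3.48 (SE 0.37), Nrg1 at -1.10 (SE 0.21) and Nrg4 at -1.04 (SE 0.27). With at least 1000 genes per nucleus, NPY-like and VIP-like nuclei were too few to enter, so PV-like and SST-like nuclei were set against each other alone. The PV-like difference of Egfr then turned to 0.46 and was not called (adjusted p = 0.614), and the SST-like differences of Egfr and Nrg1 were -0.46 and -0.45 and were not called. The SST-like call for Nrg1 had a size of -0.99 without RunGH of cohort 2 and -0.90 without SedSI, both under the size needed, and the one for Nrg4 lay between -0.93 and -0.97 without SedGH, RunSI or SedSI of cohort 2. Subtracting free RNA gave -1.54 for Nrg1 and -1.16 for Nrg4 in SST-like nuclei.

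**Figure D2:**
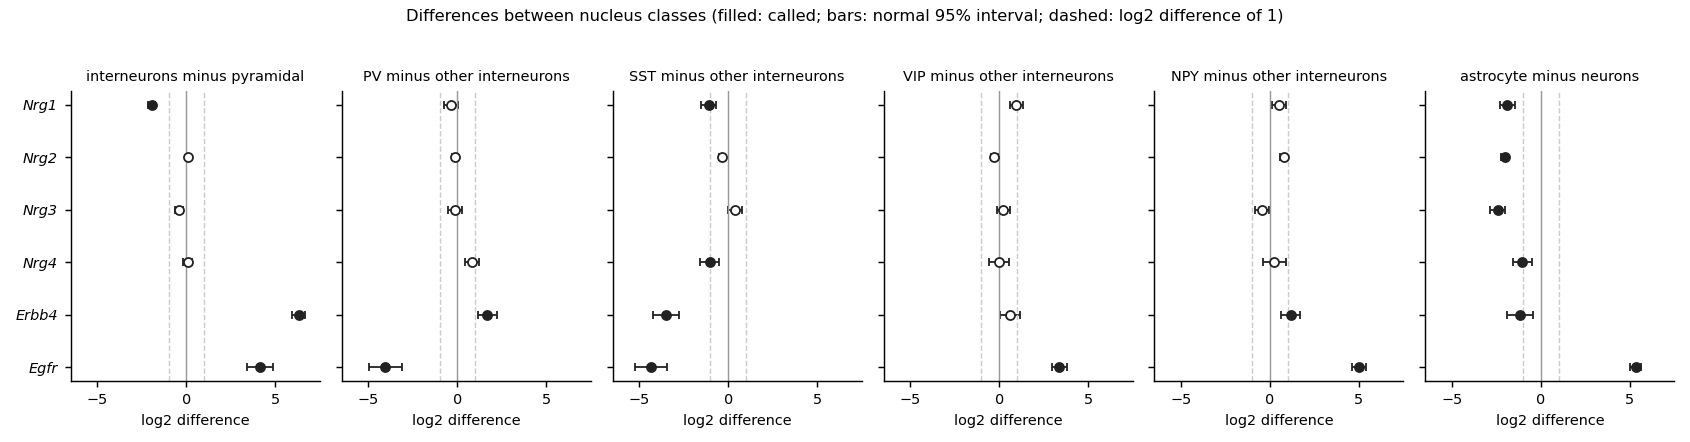
Log2 difference of 6 members in 6 contrasts between nucleus classes (x axis), from the edgeR fit over 6 libraries, with bars of the normal 95% interval; filled points were called and dashed lines mark a log2 difference of 1. Erbb4 spans 6.31 in interneurons against pyramidal classes to -3.48 in SST-like against other interneurons, while Nrg3 stays within 1 of 0 in the contrasts between neurons.

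Within pyramidal-like classes the calls were few and all lower. Nrg1 was lower in layer 5 extratelencephalic-like nuclei by 1.26 (the difference was -1.26, SE 0.19, adjusted p = 5.32e-08, 8.09% of genes called) and in near-projecting-like nuclei, at -1.19 (SE 0.19, adjusted p = 2.70e-07, 11.0% of genes called). Nrg4 was lower in layer 6 corticothalamic-like nuclei at -1.05 (SE 0.13, 7.67% of genes called), a value that went to -0.92 without RunGH of cohort 2 and -0.95 without RunSI. No member was called in layer 2/3-like (7.98% of genes called), mid-layer (6.25%), deep (4.76%) or intratelencephalic-like (4.69%) nuclei. In mid-layer nuclei Nrg1 differed by 0.89 (SE 0.16) and in extratelencephalic-like nuclei Nrg2 by -0.95 (SE 0.07), each with an adjusted p below 0.05 in edgeR's test but under the size needed; with free RNA subtracted this Nrg2 difference was -1.03 and was called. Egfr in near-projecting-like nuclei differed by 1.28 (SE 0.56, adjusted p = 0.0693), and was called at 1.81 in cohort 2 alone and at 2.35 with free RNA subtracted, from 33 UMIs in all. Erbb4 differed by -0.43 to 0.66 between pyramidal classes and was called in none of them. In cohort 2 alone, where less free RNA was present, its difference was 0.91 (SE 0.18) in extratelencephalic-like and 0.74 (SE 0.26) in near-projecting-like nuclei.

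**Figure D3:**
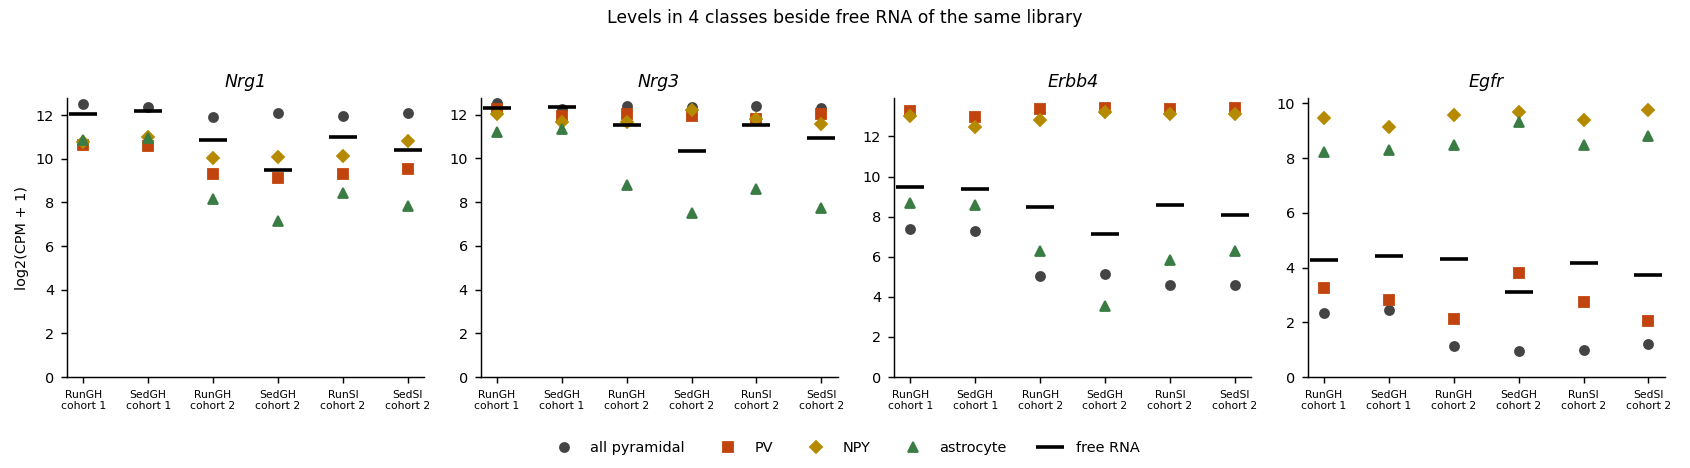
Level of Nrg1, Nrg3, Erbb4 and Egfr in 4 classes, as log2(CPM + 1), in each of the 6 libraries (x axis), beside the level in free RNA (black bars) of barcodes with under 100 UMIs. Nrg3 in astrocytes and Erbb4 in pyramidal nuclei were higher in both cohort 1 libraries than in any of cohort 2, as was free RNA, whereas Erbb4 in PV and Egfr in NPY nuclei lay far above free RNA in every library.

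Astrocyte-like nuclei differed from the mean of the 11 neuron classes in all 6 tested members, in a contrast that called 31.3% of genes. Egfr was higher by 5.32 (SE 0.16, adjusted p = 3.08e-46, 40.0-fold). The other 5 were lower, Nrg3 at -2.44 (SE 0.22), Nrg2 at -2.05 (SE 0.11), Nrg1 at -1.89 (SE 0.21), Erbb4 at -1.19 (SE 0.37, adjusted p = 0.00368) and Nrg4 at -1.04 (SE 0.28). Beyond the following fits, the part of free RNA in these values was not tested. In cohort 2 alone Nrg3 was at -4.02 (SE 0.11) and Nrg1 at -2.93 (SE 0.11), and with free RNA subtracted Erbb4, at -1.12 (SE 0.52), was no longer called (adjusted p = 0.0576).

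The remaining glial classes fell under 20 nuclei in some libraries and were tested in a fit added after the data were seen, with at least 5 nuclei per library, in which 13071 genes were tested. Erbb3 passed the filter on low counts only in this fit, through the classes in which it is high, so its levels are given above as a description and it is left out of these counts. Against the neuron classes, oligodendrocyte-like nuclei had more Erbb4 by 2.62 (SE 0.28), and less Nrg3, Nrg2, Nrg1 and Nrg4 (5 of the other 6 members called, 27.5% of genes called). Their Erbb4 level was 1562 and 1600 CPM in cohort 1 and 2634, 3232, 2497 and 2614 CPM in cohort 2, so that all 4 libraries with less free RNA lay higher. Oligodendrocyte precursor-like nuclei (4 of 6 called, 22.1% of genes called) were higher in Erbb4 (2.33, SE 0.29) and Egfr (1.80, SE 0.58), and lower in Nrg3 (-1.65, SE 0.27) and Nrg1 (-1.53, SE 0.26). The neuron side of these contrasts is a mean of log levels over classes, most of them pyramidal-like. Mean Erbb4 was 2356 CPM in oligodendrocyte-like and 2045 CPM in precursor-like nuclei, under PV-like (10105), NPY-like (8086) and VIP-like (6040) nuclei. Mean Egfr in precursor-like nuclei was 24.8 ± 23.3 CPM, under NPY-like (734) and VIP-like (294) nuclei and beside 7.74 to 20.5 CPM in free RNA. Microglia-like nuclei (4 of 6 called, 30.4% of genes called) were lower in the 3 ligands Nrg1, Nrg2 and Nrg3 and higher in Egfr (2.16, SE 0.74), from few counts in 10 to 45 nuclei per library.

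The likeness of other genes to each member was measured as Pearson's r of log2(CPM + 1) across 15 classes, averaged over the 6 libraries, among 13439 genes with at least 10 CPM in some class. Classes share libraries and free RNA, so r is given as a description. Erbb4 was most like Zfp536, which encodes a zinc finger protein (r = 0.965), then Cep192 (0.905) and the long noncoding RNA Sox2ot (0.900). Nrg1 was most like Nell2 (0.933), Slc8a2, a sodium-calcium exchanger (0.932), and Camk4, a calcium-dependent kinase (0.931). Nrg2 was most like Rims1, a protein of the presynaptic active zone (0.951), Fgf14 (0.946) and Pdzd4 (0.924), and Nrg3 like Nrg3os (0.974), Csrnp3 (0.974) and the syntaxin gene Stx3 (0.974). Nrg3os lies on the opposite strand inside the span of Nrg3 (chr14:38898302-38958794), and how strand was used in counting is not given in the sources used here, so reads of the 2 genes could be mixed. Nrg4 was most like Tmem198 (0.954) and Xylt2 (0.952). Erbb3 was most like Gm10863 (0.984), Gpr17, a receptor of the oligodendrocyte lineage (0.971), and Anln (0.966). Egfr was most like G6pdx (0.882), Egfros (0.878), which is named as its opposite-strand transcript, and Tnrc18 (0.876). Within the family, Nrg2 and Nrg3 had the most similar patterns (r = 0.851, 15 classes).

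Of 57 other genes of the pathway, listed by role, 51 were tested between classes. In interneurons against pyramidal classes 7 were higher and 1 lower, which is 15.7% of the 51 beside 14.1% of all genes, with a median log2 difference of 0.02. The largest were Ptprz1, a receptor tyrosine phosphatase, at 3.18 (SE 0.09), and the EGFR ligand gene Hbegf at 2.97 (SE 0.27), while Yap1, a transcriptional coactivator, was the lower one at -1.85 (SE 0.24). Of the 3 other ErbB ligands tested 1 was called, of 25 adaptors and signalling genes 4, of 10 inhibitors and turnover genes 2, of 5 synaptic scaffold genes 1, and of 5 shedding genes and 3 neuregulin-related EGF-domain genes 0 (edgeR, adjusted p below 0.05 and a log2 difference of at least 1). In astrocyte-like nuclei 12 were higher and 4 lower (31.4%, beside 31.3% of all genes), led by the docking protein gene Gab1 at 5.05 (SE 0.16) and Ptprz1 at 4.87 (SE 0.08). Gab1 was also high in oligodendrocyte-like (6.68, SE 0.21), precursor-like (5.12, SE 0.29) and microglia-like (5.05, SE 0.41) nuclei. Lrig3, from a family of negative regulators of ErbB receptors, was at 5.31 (SE 0.49) in oligodendrocyte-like nuclei. Tgfa, which encodes the EGFR ligand TGF-alpha, was higher in precursor-like nuclei by 5.83 (SE 0.26) and in microglia-like nuclei by 5.52 (SE 0.38). Counts were 11 higher and 3 lower in oligodendrocyte-like nuclei (27.5%, beside 27.5% of all genes), 9 and 1 in precursor-like nuclei (19.6%, beside 22.1%), and 9 and 7 in microglia-like nuclei (31.4%, beside 30.4%). The list was thus called about as often as all genes in each of these contrasts.

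The maternal comparison asked whether the family differed between Run and Sed males within a class. It was tested over the 6 libraries with edgeR's quasi-likelihood test, with cohort and housing as further terms and 2 residual degrees of freedom, in all pyramidal-like nuclei together, PV-like, SST-like, VIP-like and NPY-like interneurons and astrocyte-like nuclei. No member passed the test in any class with all 6 libraries. Without RunGH or without SedGH of cohort 1, Nrg1 in pyramidal-like nuclei (-0.26) and Nrg3 in astrocyte-like nuclei (1.00) were called, where 3346 and 3328 pairs over all genes were called. In both of these fits the cohort term takes up the remaining cohort 1 library, so both compare the cohort 2 libraries alone and are not separate results. The Nrg3 value rests on few UMIs in the Sed libraries of cohort 2, as given below. With all 6 libraries, of 30 pairs of a member and a class 0 were called and 4 had an unadjusted p below 0.05, beside 31 of 59295 pairs of all genes called (0.0523%) and 6.06% with an unadjusted p below 0.05. DESeq2 called 0 members too and 63 pairs over all genes. Log2 differences of the members (Run minus Sed) ran from -0.39 to 0.34 with a median SE of 0.15. The smallest adjusted p was 0.643, for Egfr in astrocyte-like nuclei, at -0.39 (normal 95% interval -0.68 to -0.09, unadjusted p = 0.0111 in the same fit). In PV-like nuclei the Erbb4 difference was 0.04 (95% interval -0.22 to 0.30) and the Nrg1 difference in pyramidal-like nuclei -0.11 (-0.35 to 0.12).

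For housing (SI minus GH, from the 2 SI libraries of cohort 2), 0 of 30 pairs were called in edgeR and 0 in DESeq2, and 2 had an unadjusted p below 0.05, beside 1 of 59295 pairs of all genes called (0.00169%) and 2.27% with an unadjusted p below 0.05. One of the 2 was Erbb4 in pyramidal-like nuclei, at -0.50 (95% interval -0.74 to -0.26, unadjusted p = 0.00559 and adjusted p = 1.00 in edgeR). Its levels in cohort 2 were 31.8 and 34.2 CPM in the GH libraries and 23.4 and 22.7 CPM in the SI libraries, without overlap, and under the free RNA of the same libraries. In a fit to cohort 2 alone it was called, at -0.49, and in one with free RNA subtracted as well it was not. The other was Nrg2 in astrocyte-like nuclei, at 1.38 (SE 0.49, adjusted p = 0.971), which rests on 10.8 CPM from 1 UMI in SedGH against 64.6 CPM in SedSI and on 20.1 against 37.8 CPM in the Run libraries. In PV-like nuclei the housing difference of Erbb4 was 0.01 (SE 0.16). Of the other pathway genes, 52 entered the condition tests in 264 pairs with a class, of which 0 were called for either comparison in edgeR, with 10 pairs for the maternal environment and 6 for housing at an unadjusted p below 0.05.

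**Figure D4:**
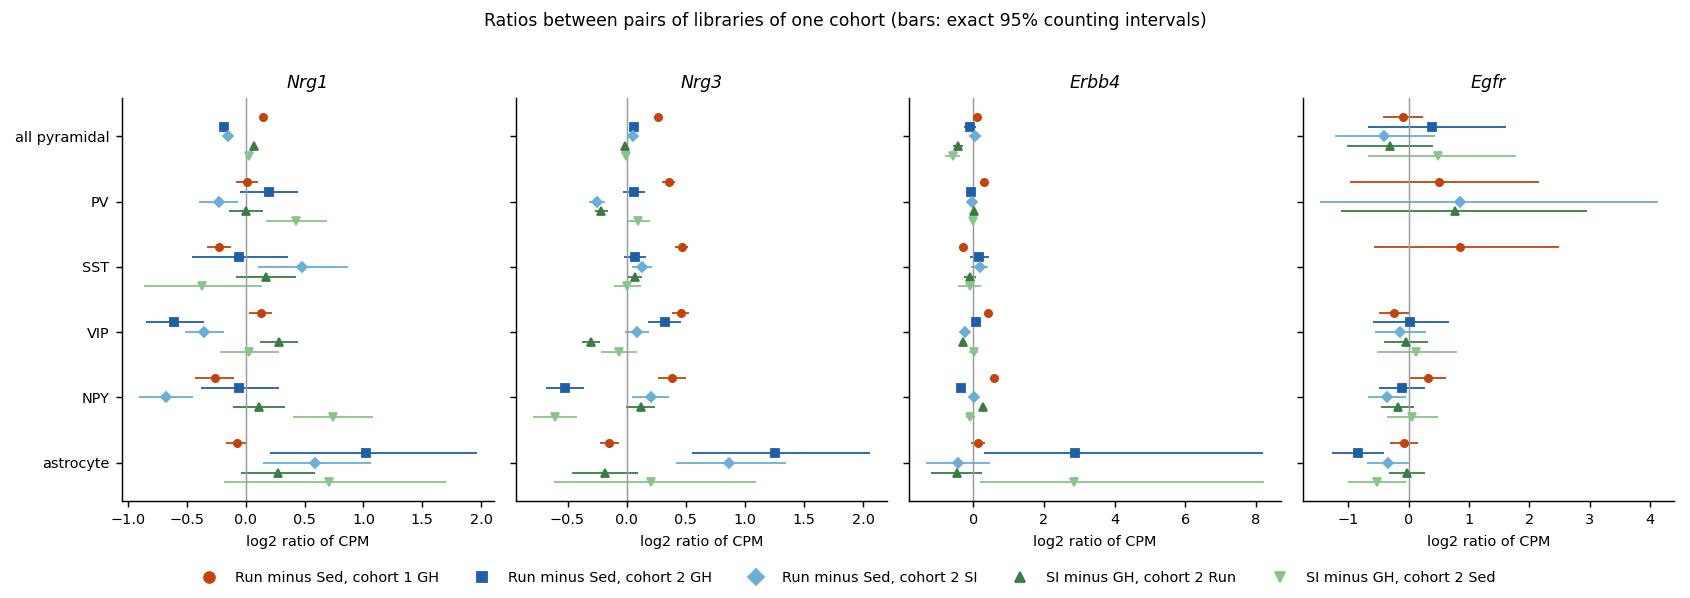
Log2 ratio of CPM of Nrg1, Nrg3, Erbb4 and Egfr between 2 libraries of 1 cohort in 6 nucleus classes, with exact 95% intervals that cover counting error only; a ratio is left out where the pair held under 10 UMIs or a library was at 0. In all pyramidal nuclei the Run to Sed ratio of Nrg1 was 0.15 in cohort 1 and -0.19 and -0.15 in cohort 2, and the x axes differ between panels.

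The Run to Sed ratios did not repeat between cohorts for several members, and this difference was tested itself, as the interaction of cohort and maternal environment, with 1 residual degree of freedom. Both cohort 1 libraries are fitted exactly here, so the p-values rest on the scatter within cohort 2. They do not measure the spread between pools of cohort 1. The fit scaled libraries by TMM (trimmed mean of M-values) and held housing as a term, so its values are not the plain differences of the CPM ratios given beside them. In a fit added after the data were seen that scaled by library totals, as CPM does, most of the member calls were lost, as given below. In the TMM fit 12.9% of all genes were called in pyramidal-like nuclei, 0.805% in PV-like nuclei and 0.0816% in astrocyte-like nuclei, so a call in pyramidal-like nuclei is not particular to the family. The test was also run in SST-like, VIP-like and NPY-like interneurons. No member was called there, and the shares over all genes are not given here. Nrg1 in pyramidal-like nuclei was at 5856 CPM in RunGH and 5287 in SedGH of cohort 1, and at 3799 and 4325 CPM in RunGH and SedGH and 3975 and 4407 CPM in RunSI and SedSI of cohort 2. By CPM, Run was the higher library in cohort 1 and the lower one in both pairs of cohort 2. The fitted maternal difference in cohort 2 minus that in cohort 1 was -0.45 (SE 0.11, adjusted p = 0.000687 in edgeR), and -0.32 by library totals (adjusted p = 0.0257). Erbb4 in PV-like nuclei had a Run to Sed ratio of 0.30 in cohort 1 and of -0.07 and -0.06 in GH and SI of cohort 2. The fitted difference was -0.46 (SE 0.11, adjusted p = 0.0299), and by library totals it was -0.36 and was not called (adjusted p = 0.107). SedGH of cohort 1 was the lowest library for Erbb4 in PV-like (7923 CPM), NPY-like (5624 CPM) and VIP-like (4693 CPM) nuclei and had the most free RNA by median background droplet (1196 UMIs). RunGH of cohort 1 had 1064 UMIs there, a like share of its median nucleus (19.0% against 19.1%), and more Erbb4 in free RNA (724 against 666 CPM). Pyramidal markers summed to 730 and 775 CPM in PV-like nuclei of cohort 1 and to 400 to 517 CPM in cohort 2, and their part in the Erbb4 difference between cohorts was not tested. Nrg3 had Run to Sed ratios of 0.27 in cohort 1 and 0.07 and 0.06 in cohort 2 in pyramidal-like nuclei, and of 0.36, 0.06 and -0.25 in PV-like nuclei, and both fitted differences between cohorts were called (-0.34, SE 0.11, and -0.54, SE 0.13). By library totals they were -0.21 and -0.45 and neither was called (adjusted p = 0.149 and 0.0586 in edgeR). In astrocyte-like nuclei the Nrg3 ratio was -0.15 in cohort 1 and 1.26 and 0.87 in cohort 2 (fitted difference 1.21, SE 0.27, adjusted p = 0.0190, and 1.15 by library totals), from 17 UMIs in SedGH and 49 UMIs in SedSI of cohort 2. Subtracting free RNA left 0 UMIs in both Run libraries of cohort 2 and 7 and 12 UMIs in the Sed libraries, so no size of this difference can be given there. Endothelial markers summed to 5.66 and 11.1 CPM in astrocyte-like nuclei of cohort 1 and to 32.3 to 186 CPM in cohort 2, and their part in this difference was not tested. Nrg3os differed most of the genes printed here, at -2.36 (SE 0.13) in pyramidal-like and -2.62 (SE 0.32) in PV-like nuclei, with 76.7 and 25.3 CPM in RunGH and SedGH of cohort 1 and 241, 445, 217 and 432 CPM in cohort 2 in PV-like nuclei. Run thus had more Nrg3os than Sed in cohort 1 and less in both pairs of cohort 2. Free RNA held 72.9 and 40.6 CPM of Nrg3os in RunGH and SedGH of cohort 1. In RunGH, SedGH, RunSI and SedSI of cohort 2 it held 188, 42.6, 163 and 136 CPM. The PV-like levels of cohort 1 were thus near or under free RNA, which was not subtracted from the values given here.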

How the data were processed

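Nuclei of pooled PL tissue were profiled with the 10x Chromium 3' V3 assay in 6 libraries. The deposited files hold raw UMI counts per gene and barcode, made by the authors with Cell Ranger 6.0.0 against mm10 per the labels, introns included (the matrix headers name another Cell Ranger release). Total UMIs per library were 19134955 to 188952936. Barcodes with 500 to 4000 genes, at most 1% mitochondrial UMIs and a library-specific minimum of 621 to 3156 UMIs were kept. Clusters were made per cohort in Python 3.11.15 with scanpy 1.11.5 (3000 variable genes, 35 components, 20 neighbours, Leiden resolution 0.6), leaving out the members and pathway genes, and named from fixed markers. The naming thresholds, and a second clustering of glial nuclei, were set after clusters had been seen, and 6.18% of nuclei stayed unnamed. Scrublet marked 1.09% to 6.75% of nuclei per library as doublets, which were left out only in an alternative. The profile of free RNA was taken from barcodes with under 100 UMIs. Its amount per nucleus was the median UMIs of background droplets, which are barcodes below the library's minimum. In cohort 1, 82376 and 103391 barcodes met the gene and mitochondrial limits before this minimum, against 5687 to 10532 in cohort 2. Whether background droplets hold more than free RNA was not tested.

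Counts were summed per library and class (at least 20 nuclei) and tested with edgeR 4.0.16 in R 4.3.3 (quasi-likelihood, TMM, Benjamini-Hochberg), with DESeq2 1.42.0 as an alternative. Condition fits had cohort, maternal environment and housing as terms, class fits had library as a block, and both were tested on simulated data. Cohort is the replicate number of the labels and so the block; only GH conditions carry both numbers. Alternatives changed clustering, doublets, depth, normalization, filter, free RNA and libraries. Each library is a pool, so p-values of the condition tests measure the spread between these pools. In the class fits the library block takes out that spread. Their p-values measure the scatter of class sums left within libraries, taken over all classes together. Floors and the intervals called exact cover counting error only. All other intervals are normal ones, made from the log2 difference and the SE of the edgeR fit. They make no allowance for the few residual degrees of freedom, so those of the condition tests are narrower than the p-values of the same fits imply. The members and gene lists were chosen with earlier results of these data known. All members were named, with the 3 genes most like each member at 10 CPM or more in some class, and pathway genes called in a condition test or first by size in a class contrast. One gene that this rule names is not reported here.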

Additional observations from a re-analysis of the deposited data

Results flagged for a closer look

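The maternal difference (Run minus Sed) of 3 members differed between the cohorts in the test of the difference itself, by log2 values, cohort 2 minus cohort 1, of -0.447 for Nrg1 and -0.337 for Nrg3 in pyramidal-like nuclei, of -0.455 for Erbb4 and -0.543 for Nrg3 in PV-like nuclei, and of 1.21 for Nrg3 in astrocyte-like nuclei (edgeR, 1 residual degree of freedom). This test fits both cohort 1 libraries exactly, so its p-values do not measure the spread between pools of cohort 1. It called 12.9% of all genes in pyramidal-like, 0.805% in PV-like and 0.0816% in astrocyte-like nuclei. It was also run in SST-like, VIP-like and NPY-like nuclei, where no member was called. The pyramidal-like calls are thus not particular to the family. The astrocyte-like value rests on 17 and 49 UMIs in the Sed libraries of cohort 2, and subtracting free RNA left 0 UMIs in both Run libraries there, so that no size can be given after subtraction. With libraries scaled by their totals in place of TMM, the calls for Nrg3 in pyramidal-like and for Erbb4 and Nrg3 in PV-like nuclei were lost. Cohort cannot be told apart from earlier behavioural testing, selection by rank, depth and the amount of free RNA, all of which differed between cohorts, and 1 library stands for each condition in a cohort. Median UMIs per nucleus were 5586 and 6250 in cohort 1 and 1637 to 4033 in cohort 2, where SedGH was the shallowest library. Within cohort 2 free RNA also went with the maternal groups. Background droplets held 7.68% and 7.49% of the median nucleus in RunGH and RunSI, against 5.01% and 4.25% in SedGH and SedSI. Free Nrg3 was at 2945 and 2984 CPM against 1316 and 1973 CPM. Beyond the subtraction, its part in the Run minus Sed values was not tested. In vascular leptomeningeal-like nuclei, a class of 59 nuclei that was named in cohort 1 alone and used in no comparison, Egfr was at 713 CPM in RunGH (exact 95% interval 564 to 888) and at 549 CPM in SedGH (437 to 682), where free RNA held 18.6 and 20.5 CPM. In cohort 2 a cluster of 136 nuclei led by Bnc2, Bmp6 and Cped1, genes that were also among those leading the clusters of this class in cohort 1, stayed unnamed, and clustering on log-normalized values named 52 nuclei of cohort 2 as vascular leptomeningeal-like. No group had the 4 samples that a search for outlying libraries needs.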

How the results depend on the processing

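The number of pairs of a member and a class called for the maternal environment (0) was 0 to 2 when 1 library was left out, with Nrg1 in pyramidal-like (-0.26) and Nrg3 in astrocyte-like nuclei (1.00) called without RunGH or without SedGH of cohort 1, and 5 in cohort 2 with free RNA subtracted, an alternative added after the data were seen in which 3 of the 5 rest on a library left at 0 UMIs. Over all genes the 31 maternal calls became 20 when clustering used the listed genes, 18 with at least 1000 genes per nucleus, 74 without a filter, 63 in DESeq2, 1949 in cohort 2 with free RNA subtracted, and 23 to 3346 with 1 library left out. With either cohort 1 library left out, the cohort term fits the remaining cohort 1 library exactly. These fits, for housing too, thus compare cohort 2 alone and are not separate checks. For housing, 1 member (Erbb4 in pyramidal-like nuclei, -0.49) was called in cohort 2 alone and 0 to 1 with 1 library left out. The 1 housing call over all genes became 2 when clustering used the listed genes, 0 with at least 1000 genes per nucleus, with free RNA subtracted or in DESeq2, 3 without a filter, 85 in cohort 2 alone, 4 there with free RNA subtracted, and 2 to 88 with 1 library left out. Without the replicate block, 0 genes were called for the maternal environment and 0 for housing, and 17 member calls were made between classes. The 21 member calls between classes were 18 to 23 with 1 library left out and 10 with at least 1000 genes per nucleus, where fewer contrasts (10) could be fitted because NPY-like, VIP-like and astrocyte-like nuclei fell under 20 in a library, Egfr in PV-like nuclei turned to 0.46, and 5 of 8 members kept their highest class. The 5 pairs of a member and a class called for the maternal difference by cohort were 9 with free RNA subtracted, 3 of which (Erbb4 and Egfr in pyramidal-like and Nrg3 in astrocyte-like nuclei) rest on a library left at 0 UMIs, so that the fitted -7.49 for Nrg3 depends on the prior count and gives no size. They were 3 when thinned to 1000 UMIs, and 2 with libraries scaled by their totals without TMM. No share over all genes is set beside these counts, so they show only how the member calls moved. The cause of the other changes was not tested. Of the class differences called in the main fit and recomputed under the alternatives, 342 kept their call, 23 lost it and 1, the Egfr difference in PV-like nuclei given above, turned its direction. Calls gained under an alternative are not in this tally. For the maternal difference by cohort, 30 kept their call, 9 lost it and 1 turned its direction. The last was Nrg3 in astrocyte-like nuclei with free RNA subtracted, for which no size can be given.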
